A study of Mus musculus with 4 samples.

Results

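The genes described here are 10 regulators of G-protein signalling (Rgs1, Rgs2, Rgs3, Rgs4, Rgs5, Rgs10, Rgs12, Rgs16, Rgs18 and Rgs19), taken as the rows of the deposited gene table whose symbol equals one of these names. Each had 1 row, so 10 of the 24216 rows are covered, and all 10 were tested by the authors. The table compares sorted cells of molar pulp with sorted cells of incisor pulp from XLacZ4 mice, a reporter line in which pericytes and vascular smooth muscle, the mural cells of small vessels, make bacterial beta-galactosidase. Both groups were pulp cells of that strain, with no treatment named, that had turned over FDG, a beta-galactosidase substrate that becomes fluorescent, and the labels give 2 libraries for each tooth type. The protocol text of the incisor libraries names molars too, and the tooth type follows their titles and tissue labels, which name the incisor. Age, sex and the number of animals are not stated in the sources used here, nor is it said that the libraries came from separate animals. An enzyme of the cells' own lysosomes can also cleave FDG, so positivity alone does not define a mural cell.

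Receptors of the seven-helix class switch on heterotrimeric G proteins by loading the alpha subunit with GTP. An RGS protein binds the active alpha subunit and speeds up its hydrolysis of GTP, which ends the signal of both the alpha and the beta-gamma subunits. In vessels these proteins limit the response of mural cells to constrictor and chemotactic receptors, and Rgs5 is a standard marker of pericytes. The small proteins of the R4 group (here Rgs1, Rgs2, Rgs3, Rgs4, Rgs5, Rgs16 and Rgs18) act on alpha subunits of the Gi and Gq families, Rgs2 with a preference for Gq. Rgs10 and Rgs12 belong to the R12 group and Rgs19 to the RZ group, which act mainly on the Gi family.

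Levels are FPKM, sequenced fragments scaled by transcript length and by depth, and the authors' deposited table holds 1 value for each tissue, combined over its libraries. No replicate spread, interval or read count goes with them, so the order of 2 neighbouring levels could not be tested and the depth is unknown. A gene is named called where the authors' adjusted p-value (q) lay under 0.05. Differences in sorting, preparation or sequencing between the molar and the incisor libraries cannot be told apart from differences between the teeth, and in sorted bulk cells fewer cells of a type cannot be told apart from less RNA per cell.

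In the authors' deposited table the RGS genes divided between the teeth. Rgs5 and Rgs4 were higher in incisor, Rgs10, Rgs3, Rgs19 and Rgs16 were higher in molar, and Rgs1, Rgs2, Rgs12 and Rgs18 were not called. Thus 6 of 10 were called, beside 16.2% of all 18770 tested genes. The 4 called higher in molar stand beside a background of 11.9%, and the 2 called higher in incisor beside 4.28%. These shares also cover tested genes that stayed under 1 FPKM in both tissues, as none of the 10 did. Taken as log2((molar FPKM + 1) / (incisor FPKM + 1)), the median difference was 0.68 over the 10 genes, and 0.14 over all tested genes that reached 1 FPKM in either tissue, as all 10 did. List medians given further on stand beside 0.21 for all tested genes without that minimum, and list counts beside the shares above. The genes were picked with earlier results of these data known, so these counts describe the set and do not show that it stands apart.

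**Figure D1:**
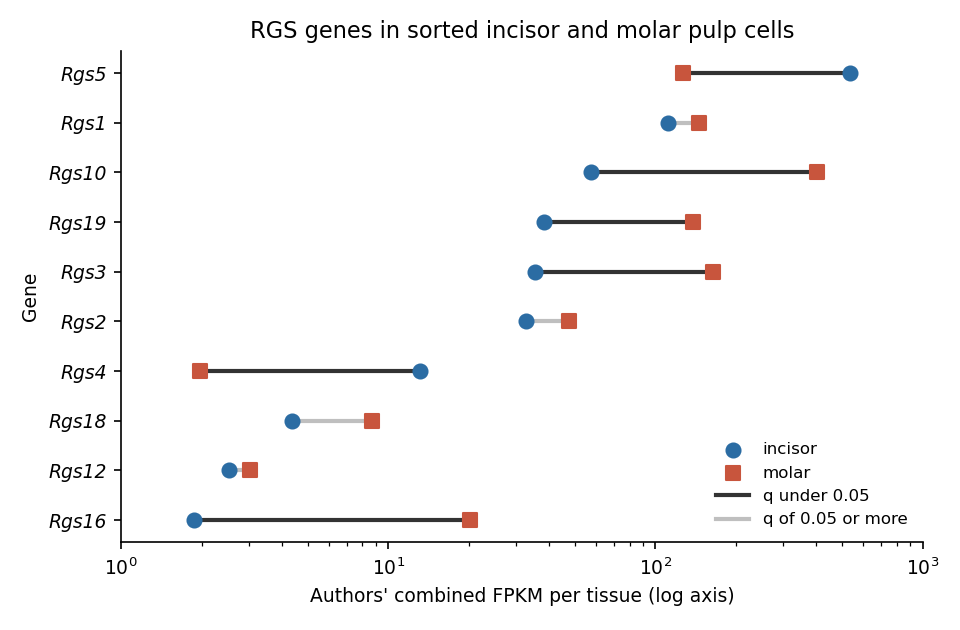
FPKM of the 10 RGS genes in incisor (blue circles) and molar (red squares) on a log axis, 1 combined value per tissue with no error available, ordered by the incisor level. Dark lines join the 6 genes with q under 0.05. Rgs5 runs from 537 in incisor down to 127 in molar, and Rgs10 from 57.3 up to 403.

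The starts of 4 called genes are shown first, those of the incisor-higher neighbours Rgs5 and Rgs4 and of the molar-higher genes with the highest level (Rgs10) and the largest fold without a pseudocount (Rgs16). They are the 250 bases before the annotated transcription start, from RefSeq on GRCm38.p6, 5′ to 3′ on the strand of the gene, with each CG dinucleotide in capitals. The windows are chr1:169655251-169655500 (plus strand) for Rgs5, chr1:169747643-169747892 (minus) for Rgs4, chr7:128418173-128418422 (minus) for Rgs10 and chr1:153740103-153740352 (plus) for Rgs16.
Rgs5: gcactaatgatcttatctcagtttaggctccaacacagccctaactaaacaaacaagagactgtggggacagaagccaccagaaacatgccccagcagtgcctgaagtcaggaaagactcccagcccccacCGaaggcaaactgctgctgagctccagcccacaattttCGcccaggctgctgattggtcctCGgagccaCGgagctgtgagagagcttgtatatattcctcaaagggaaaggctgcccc
Rgs4: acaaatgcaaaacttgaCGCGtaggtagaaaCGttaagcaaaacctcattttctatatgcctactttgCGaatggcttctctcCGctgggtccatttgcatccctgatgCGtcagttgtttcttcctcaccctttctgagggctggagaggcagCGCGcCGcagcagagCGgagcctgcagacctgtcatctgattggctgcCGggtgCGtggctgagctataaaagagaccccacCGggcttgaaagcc
Rgs10: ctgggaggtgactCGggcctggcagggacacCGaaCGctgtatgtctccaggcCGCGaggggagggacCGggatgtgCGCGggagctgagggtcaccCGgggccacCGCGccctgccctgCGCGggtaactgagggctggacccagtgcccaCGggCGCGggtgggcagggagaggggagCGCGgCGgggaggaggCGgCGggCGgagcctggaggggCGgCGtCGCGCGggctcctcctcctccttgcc
Rgs16: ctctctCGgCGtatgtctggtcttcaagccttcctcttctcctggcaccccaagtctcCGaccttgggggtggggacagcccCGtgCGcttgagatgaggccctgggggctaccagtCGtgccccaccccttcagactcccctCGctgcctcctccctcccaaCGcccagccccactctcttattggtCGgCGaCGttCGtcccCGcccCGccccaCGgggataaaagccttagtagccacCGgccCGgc

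The window of Rgs5 held 4 CG dinucleotides and a GC content of 53.6%, and 44.4% of all 32851 promoter windows held as few. Rgs4 had the same GC content with 13 CG dinucleotides. Rgs10 held 27, at 76.4% GC, a count that 8.56% of all windows reached, and Rgs16 held 17 at 66.4% GC. The median window had 6. Among the other genes, Rgs2 (not called) held 30. The 2 windows of Rgs3 (higher in molar) held 3 and 7, and the 3 of Rgs19 (higher in molar) held 20, 34 and 4. Counts above and below the median thus occurred on both sides of the comparison. The incisor-higher side rests on the windows of Rgs5 and Rgs4 alone, so a link between count and direction was not tested. RefSeq windows were matched for 8 of the 10 genes, 12 windows in all because Rgs3 and Rgs12 have 2 starts each and Rgs19 has 3.

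Sequence motifs were searched for on both strands of these windows. TATAAA, the core of the TATA box, was found 31 bases before the start of Rgs4 and at 100 and 177 bases before the 2 starts of Rgs3, so in 3 of 12 windows beside 12.4% of all windows. TGANTCA, bound by AP-1, was in 1 of 12, the downstream start of Rgs12, beside 6.75% of all windows. TGACGTCA, the cyclic AMP response element, was in 0 of 12 beside 1.55%, and the CArG box of serum response factor in 0 of 12 beside 1.47%. A match describes letters only, and no match says only that these letters are not in the window.

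Rgs5 (chromosome 1, 169655501 to 169695813 on mm10) had the highest level of the 10 genes in incisor. Its FPKM was 537 in incisor and 127 in molar, a 4.24-fold incisor excess (authors' deposited table, q = 0.000664). That placed it at rank 140 of all rows in incisor and at rank 1034 in molar. Rgs4, whose protein limits Gi and Gq signalling in smooth muscle and neurons (chromosome 1, 169741477 to 169747642), stood at 13.1 in incisor and 1.97 in molar, 6.66-fold higher in incisor, with q = 0.0375. It is the called member nearest the threshold, and its molar level lies within the range of chemoreceptor genes in molar, whose 99th percentile over 1469 olfactory, vomeronasal and taste receptor genes was 3.81 FPKM (0.137 in incisor). How low the molar level of Rgs4 is therefore remains uncertain, while the incisor value is far above the incisor percentile.

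Rgs5 and Rgs4 are direct neighbours. The 2 rows lie 45.7 kb apart with 0 other rows of the table between them, on opposite strands and pointing toward each other. The ratio of Rgs5 to Rgs4 was 40.9 in incisor and 64.2 in molar (a log2 change of 0.65). Neither row shares its interval with another GENCODE gene, and 0.344% or less of the 32-base words of either transcript occur in transcripts of other genes.

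The other genes used as pericyte markers did not share 1 direction. In the authors' deposited table, 3 of the 16 markers besides Rgs5 were called toward incisor and 3 toward molar. Their summed FPKM was 592 in incisor and 1107 in molar, and their median log2 difference with a pseudocount of 1 was -0.19. The molar excess of that sum came from Cox4i2 and Ndufa4l2, and the other 14 summed to 203 and 199. The most abundant was Cox4i2, a respiratory chain subunit enriched in pericytes, at 385 in incisor and 762 in molar and not called. Ndufa4l2, another mitochondrial gene enriched in pericytes, stood at 4.35 in incisor and 145 in molar. Their longest coding transcripts are 733 and 934 bases, in the class that lay furthest toward molar. The 3 called toward incisor were the receptor Pdgfrb (30.3 against 12.6), the surface protein gene Cd248 (82.5 against 35.4) and the Notch target Heyl (26.5 against 3.76). The 3 called toward molar were Ndufa4l2, the channel gene Kcnj8 (15.98 against 108) and Des (0.155 against 3.17). The longest coding transcripts of Kcnj8 and Des are 2548 and 3028 bases. The molar values of Heyl and Des are within the chemoreceptor range. None of the 17 was listed at 0 in either tissue.

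Ratios of Rgs5 to other mural genes, which no scaling of the libraries can alter, depended on the partner (these partners were chosen after their values were seen). Rgs5 was 17.7 times the level of the receptor Pdgfrb in incisor and 10.03 times in molar. Against Cspg4, the NG2 proteoglycan, whose molar level of 2.86 is within the chemoreceptor range, the ratio was 179 and 44.3. Against Kcnj8, a subunit of ATP-sensitive potassium channels, it was 33.6 and 1.17. On the log2 scale, molar over incisor, these ratios differed by -0.82, -2.01 and -4.85. Smooth muscle markers summed to 1534 in incisor and 667 in molar, mostly through the light chain gene Myl9 (1183 and 453). The 2 of 11 called toward incisor were Myl9 and Tagln (153 and 12.4), while 3 were called toward molar. Myocd was listed at 0 in incisor. Dental epithelial markers summed to 23498 and 2642, mostly through the enamel protein gene Amelx (20642 and 1937), with 8 of 12 called toward incisor, 0 toward molar and none listed at 0. Both sums were higher in incisor, as were the odontoblast, mast cell and neutrophil sums given below. The part of any of these cells in the values of Rgs5 and Rgs4 was not tested.

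Rgs10 (chromosome 7, 128373625 to 128418172), a small RGS protein best known from microglia and macrophages, had the highest level of the 10 in molar. It stood at 57.3 in incisor and 403 in molar, a 7.04-fold molar excess (authors' deposited table, q = 0.000664). Rgs19, which was first found as a Gi partner and is linked to vesicle traffic (chromosome 2, 181688419 to 181693977), stood at 38.3 and 138, 3.59-fold higher in molar, with the same q. Both genes also have short transcripts. The longest coding transcript in GENCODE is 880 bases for Rgs10 and 1511 for Rgs19, the 2 shortest among the 10. The row of Rgs10 also overlaps a noncoding transcript on its own strand by 3374 bases.

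Transcript length moved with the comparison across all genes. Over tested genes at 1 FPKM or more, 12087 with a length, the median log2 difference (pseudocount 1) was 1.02 for transcripts up to 1000 bases, 0.89 from 1000 to 2000, 0.15 from 2000 to 3000, -0.16 from 3000 to 4000, -0.24 from 4000 to 6000 and -0.25 above 6000. Genes called higher in molar made up 30.3% and 31.98% of the first 2 of these classes and 8.28% of the class from 4000 to 6000 bases. Relative to the median of its own class, Rgs10 lay 1.77 higher in molar and Rgs19 0.93 higher, on the log2 scale, against 2.79 and 1.82 without this reference. The class with Rgs19 has its upper quartile at 1.81, so the difference of Rgs19 lies just above the middle 50% of genes of like length. The part of transcript length in the molar-higher calls of Rgs10 and Rgs19 was not tested.

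**Figure D2:**
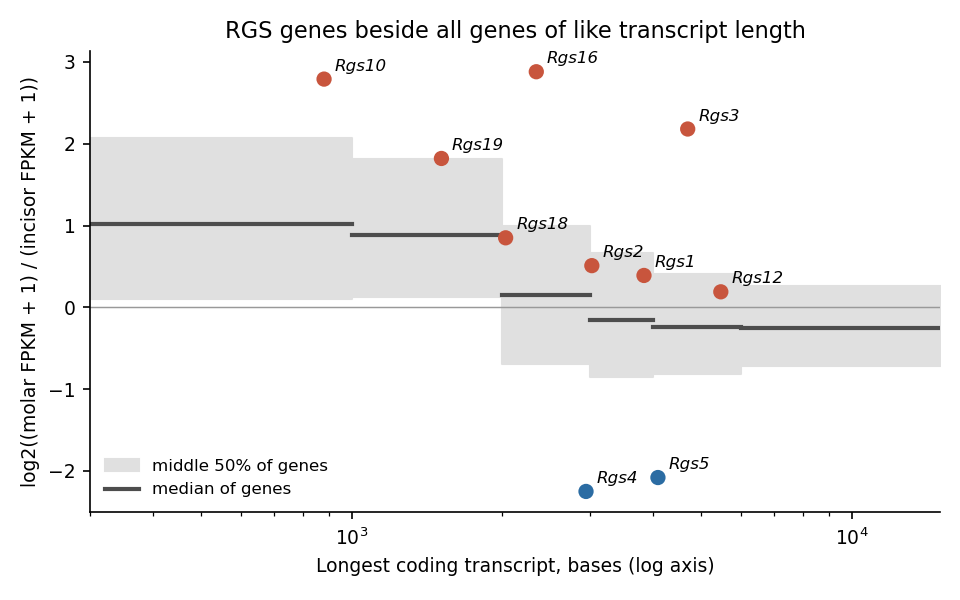
The log2 difference between molar and incisor FPKM (pseudocount 1, vertical axis) against the length of the longest coding transcript (log axis). Points are the 10 RGS genes (red above 0, blue below), dark bars the median and grey boxes the middle 50% of all tested genes at 1 FPKM or more in each length class. Medians go from 1.02 in the shortest class to -0.25 in the longest. Rgs10, Rgs16 and Rgs3 lie above the box of their class, Rgs19 just above its own, and Rgs4 and Rgs5 below theirs.

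Taken by their longest coding transcripts, Rgs3 and Rgs16, also higher in molar, fall in classes of greater length, with medians of -0.24 and 0.15. Rgs3, an R4 protein with long and short forms (chromosome 4, 62559847 to 62703019), stood at 35.4 in incisor and 164 in molar, a 4.64-fold molar excess (authors' deposited table, q = 0.000664). Relative to genes as long as its longest form, its log2 difference was 2.42. Its coding transcripts run from 496 to 4698 bases, and the gene-level value does not say which of its 8 coding forms was measured. The shortest form falls in the class with a median of 1.02, so the length reference for Rgs3 is uncertain. Rgs16, which is induced by inflammatory and mitogenic signals in many cells (chromosome 1, 153740353 to 153745468), stood at 1.87 in incisor and 20.2 in molar, a 10.8-fold difference with q = 0.000664. That is the largest fold of the 10 without a pseudocount or with one of 0.1 or 1, but with a pseudocount of 5 its log2 difference of 1.87 lay below those of Rgs10 (2.71) and Rgs3 (2.07). Relative to genes of like length it lay 2.73 higher in molar.

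Rgs16 and Rgs3 each overlap an antisense gene in GENCODE, by 1917 and 6036 bases, and the sources used here do not say whether strand was used in counting. Reads from such a pair could then not be told apart. Of the 32-base words of the Rgs16 transcript, 9.06% also occur in transcripts of other genes, counting both strands. Rgs12 overlaps an antisense gene too, by 1576 bases, and shares 7.48% of its words. The values of Rgs16 and Rgs12 and, for the overlapping stretch, of Rgs3 are uncertain to that extent.

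Rgs16, Rgs2 and Rgs1 are known to be switched on quickly in stimulated cells, and genes of that kind were mostly higher in molar. Of 26 immediate-early and dissociation genes, 16 were called toward molar and 0 toward incisor, with a summed FPKM of 926 in incisor and 8016 in molar. The other 10 were not called, Egr1, Egr2 and Btg2 among them. The most abundant of the 26 were Ier3 (60.1 against 2859), Zfp36, which destabilises cytokine messages (148 against 1243), and Fos (194 against 1008). Rgs2 and Rgs1 did not show differences of that size. The FPKM of Rgs2 was 32.9 in incisor and 47.4 in molar, 1.44-fold, with q = 0.281. That of Rgs1 was 111 and 146, 1.31-fold, with q = 0.357. The part of a handling response in the value of Rgs16 was not tested.

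Rgs1 and Rgs18 are R4 genes of blood cells. Rgs1, which damps chemokine receptors in lymphocytes and macrophages, was the second highest of the 10 in incisor at 111 and the third highest in molar at 146, and was not called (q = 0.357). Rgs18, known from platelets and their precursors and from myeloid cells, stood at 4.37 and 8.69 (q = 0.211). Both lie with Rgs2 in a cluster on chromosome 1, at 143999338 to 144004149 (Rgs2), 144244669 to 144249104 (Rgs1) and 144752841 to 144775421 (Rgs18), where Rgs13 and Rgs21 are the rows between. None of these 3 members was called, and Rgs13 and Rgs21 were at 0.0424 FPKM or below in both tissues and not tested. Rgs12, a long R12 protein with several binding domains (chromosome 5, 34949448 to 35033593), stood at 2.54 and 3.03 (q = 0.561), the latter within the molar range of chemoreceptor genes.

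Macrophage markers were abundant in both fractions and did not share 1 fold. The 20 macrophage markers summed to 7057 FPKM in incisor and 11854 in molar, with 7 called toward molar, 2 toward incisor and none listed at 0. The most abundant were Lyz2 (1903 and 3339.8), C1qb (1679 and 2145) and Cd68 (879.5 and 1015), none of them called. Single markers ran from a log2 fold of -3.39 for Mpeg1 (48.96 against 4.67) to 2.84 for the transcription factor Spi1 (2.59 against 18.6). Spi1 was 7.18-fold and the Fc receptor chain gene Fcer1g 4.82-fold higher in molar, beside 7.04-fold for Rgs10 and 3.59-fold for Rgs19, so the RGS genes stand differently to each marker. The ratio of Rgs1 to Csf1r, the receptor for the macrophage growth factor, was 0.986 in incisor and 1.18 in molar. The ratio of Rgs10 to Csf1r was 0.508 and 3.25, and that of Rgs19 to Csf1r was 0.340 and 1.11. Between the teeth these ratios differed by 0.26, 2.68 and 1.71 on the log2 scale. The longest coding transcripts of Rgs10, Rgs19 and Csf1r are 880, 1511 and 4701 bases, in classes with medians of 1.02, 0.89 and -0.24. Against Tyrobp, an adaptor of myeloid receptors with a called molar excess of its own, the log2 differences of Rgs10 and Rgs19 were 1.58 and 0.60. The longest coding transcript of Tyrobp is 597 bases. The part of transcript length in these ratios was not tested. These partners were chosen after their values were seen, and the share of macrophages in each fraction was not measured.

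Of the other marker lists, the endothelial one had most of its genes called. The 15 endothelial markers summed to 22.8 in incisor and 342 in molar, with 14 called higher in molar, led by Egfl7 (7.49 against 120), Emcn (0.756 against 87.6) and Esam (10.5 against 56.01), and Cldn5 listed at 0 in incisor. In the platelet, lymphoid, mast cell, neutrophil, odontoblast and Schwann lists at most 2 genes each were called toward either tooth. Platelet markers summed to 694 and 4263, almost wholly through Pf4 (692 and 4257), which macrophages make as well. The other 9 with a row reached at most 3.60 FPKM, and Gp6 and Treml1 were listed at 0 in incisor. Lymphoid markers summed to 42.6 and 79.1, mostly through Cd79b (37.1 and 71.7), with Cd3e and Ncr1 listed at 0 in incisor and Nkg7 at 0 in molar. Mast cell markers summed to 91.6 and 4.54, mostly through Tpsb2 (46.3 and 0.0958, q = 0.347) and Cma1 (29.7 and 0.0578, q = 0.383), neither of them called. Of 6 tested, 1 was called toward incisor, with Cpa3 listed at 0 in molar and Fcer1a at 0 in both. The sums of neutrophil markers were 30.8 and 17.9, of odontoblast and osteoblast markers 768 and 489, and of Schwann and glial markers 56.2 and 66.3. The part of these cells in the RGS values was not tested.

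**Figure D3:**
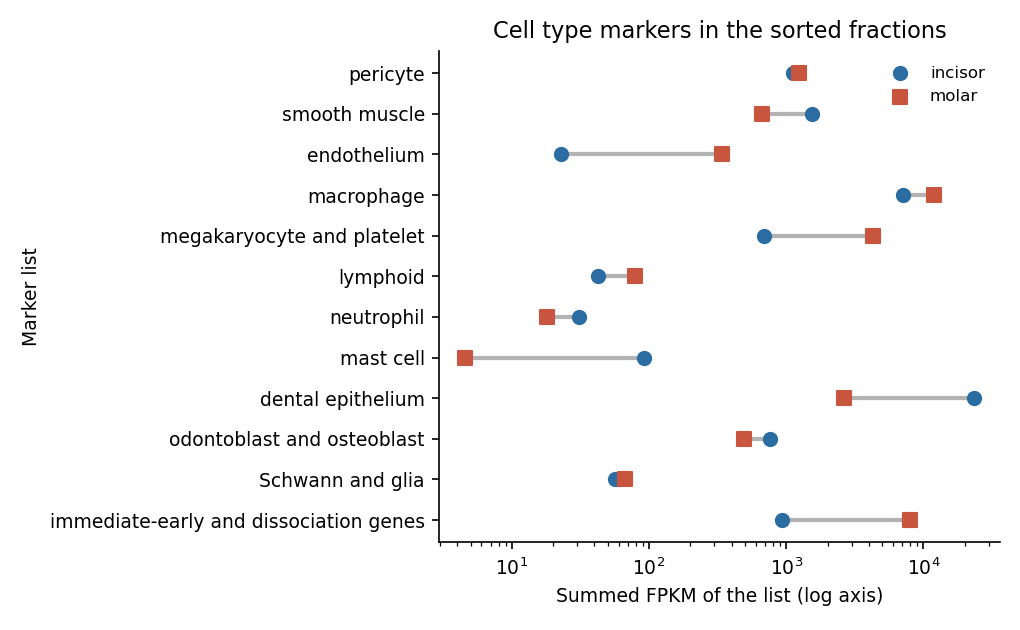
Summed FPKM of 11 cell type marker lists and of immediate-early genes in incisor (blue circles) and molar (red squares) on a log axis, 1 combined value per tissue. The pericyte list, which holds Rgs5, sums to 1129 and 1234 (an order that turns with equal FPKM totals), the endothelial list to 22.8 and 342 and the dental epithelial list to 23498 and 2642.

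The make-up of the RGS signal differed between the teeth more than its sum. The 10 genes summed to 835 FPKM in incisor and 1059.8 in molar, a log2 ratio of 0.34 that becomes -0.25 when the FPKM totals of the tissues are made equal. Rgs5 made up 64.4% of that sum in incisor and 11.96% in molar, and Rgs10 6.86% and 38.1%. Rgs3 went from 4.24% to 15.5% and Rgs19 from 4.59% to 12.99%, while Rgs1 made up 13.3% and 13.8%. The ratio of Rgs5 to Rgs10 was 9.38 in incisor and 0.314 in molar. By group, the 7 R4 genes summed to 736 in incisor and 516 in molar, with 2 called in each direction and 3 not called. That order came from Rgs5 (537 and 127), and among the other R4 genes only Rgs4 had a lower level in molar. The 2 R12 genes summed to 59.8 and 407, mostly through Rgs10 (57.3 and 403). The order of levels in incisor was Rgs5, Rgs1, Rgs10, Rgs19, Rgs3, Rgs2, Rgs4, Rgs18, Rgs12 and Rgs16. In molar it was Rgs10, Rgs3, Rgs1, Rgs19, Rgs5, Rgs2, Rgs16, Rgs18, Rgs12 and Rgs4.

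**Figure D4:**
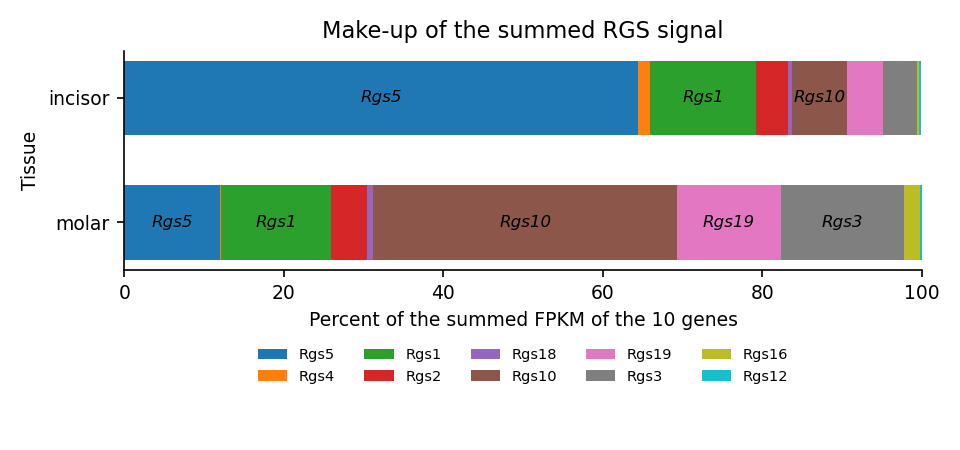
Share of each RGS gene in the summed FPKM of the 10 genes (percent, horizontal axis) in incisor (top bar) and molar (bottom bar), colours naming the genes. Rgs5 fills 64.4% of the incisor bar and 11.96% of the molar bar, and Rgs10 6.86% and 38.1%.

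The remaining genes of the RGS family were low. Of 13 other RGS-named genes, 3 reached 1 FPKM in either tissue, Rgs11, Rgs14 and Rgs7bp. Rgs11, of the R7 group that works as a dimer with the beta subunit Gnb5, stood at 7.51 in incisor and 7.68 in molar (q = 0.935), and Rgs14 at 0.3 and 2.26 (q = 0.135). Rgs7bp, which anchors R7 proteins to the membrane, was called higher in molar at 0.487 against 1.95 (q = 0.0256), and its relative Rgs9bp at 0.0257 against 0.406 (q = 0.0170). The molar values of Rgs14, Rgs7bp and Rgs9bp are within the chemoreceptor range and uncertain. Rgs6, Rgs8, Rgs9, Rgs17, Rgs20 and Rgs22 were tested and not called at 0.367 FPKM or below. Rgs7 was listed at 0 in molar and Rgs21 at 0 in incisor. Of 14 genes for other proteins with an RGS-like domain, 1 was called, Adrbk1, the receptor kinase GRK2, at 2.72 in incisor and 14.4 in molar (q = 0.000664). The list median was -0.16 on the log2 scale with a pseudocount of 1.

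RGS proteins act on some of the alpha subunits. Of the 16 tested in the authors' deposited table, 2 were called toward incisor and 1 toward molar, beside 4.28% and 11.9% of tested genes. The list median was -0.01. All 3 called alpha genes belong to the Gq family and they went both ways. The incisor-higher genes encode its widely expressed subunits, Gnaq (44.02 against 10.4, q = 0.00718) and Gna11 (56.2 against 18.6, q = 0.0107). Gna15, the Gq-family subunit of blood cells, was higher in molar (12.4 against 0.461, q = 0.000664). The Gi subunits were not called, with Gnai2 at 59.6 in incisor and 107 in molar, Gnai3 at 15.4 and 13.3 and Gnai1 at 3.43 and 2.25. Gnas, the Gs subunit that stimulates adenylyl cyclase, stood at 341 and 399 and was not called either.

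Of 17 beta and gamma subunits, 5 were called toward molar and 2 toward incisor, beside 11.9% and 4.28% of all tested genes. The list median was 0.85. Gng5 (70.1 in incisor and 676 in molar), Gng10 (84.2 and 315), Gng11 (29.4 and 124) and Gng12 (9.99 and 33.6) were higher in molar. Gnb1 (114 and 29.8) and Gng7 (13.05 and 1.90, the latter within the chemoreceptor range) were higher in incisor. The longest coding transcripts of Gng10 and Gng11 are 1192 and 919 bases, in the length classes that lay toward molar. Those of Gng5 and Gng12 are 2419 and 4248, in classes with medians of 0.15 and -0.24, and those of Gnb1 and Gng7 are 3143 and 3433. Of 17 effectors, adenylyl cyclases, phospholipases of the C beta type and G-protein gated potassium channels, 1 was called, beside 16.2% of all tested genes. It was Kcnj6 at 0.0702 and 1.27 FPKM, the latter within the chemoreceptor range. Of 5 tested exchange factors and GoLoco proteins, 0 were called in the authors' deposited table, beside the same 16.2%.

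**Figure D5:**
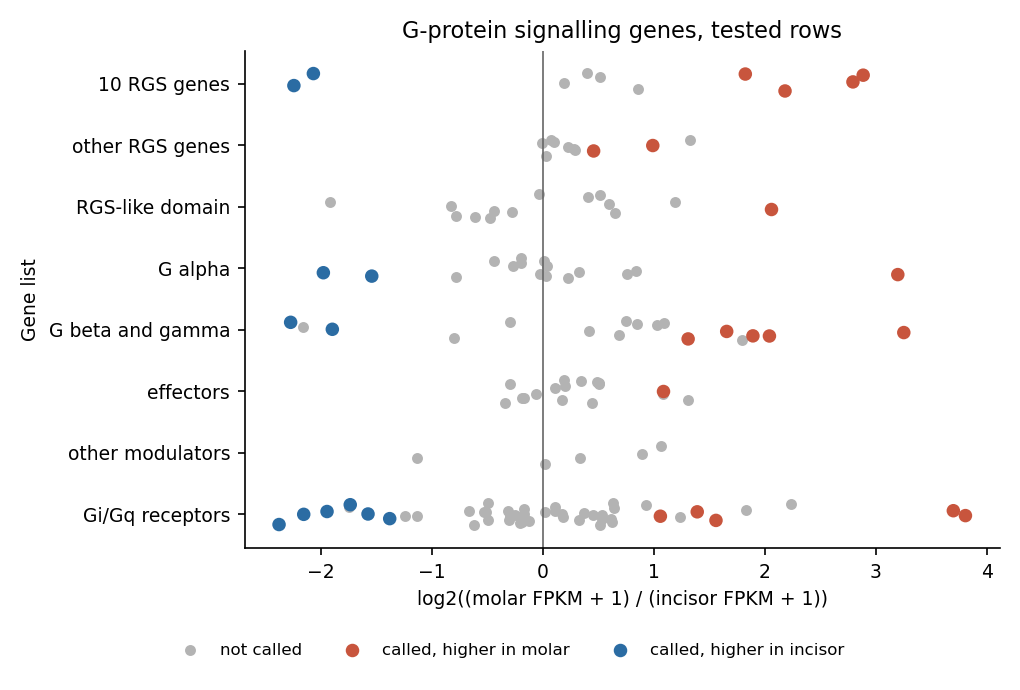
The log2 difference between molar and incisor FPKM (pseudocount 1, horizontal axis) of every tested gene in 8 lists of G-protein signalling, 1 point per gene with vertical jitter only to separate points. Red points were called toward molar and blue points toward incisor. Of the 10 RGS genes 4 are red and 2 blue, and of the 48 tested Gi and Gq coupled receptors 5 are red and 6 blue.

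Receptors that signal through Gi and Gq were called in both directions. Of 48 tested, 6 were called toward incisor and 5 toward molar, beside 4.28% and 11.9% of all tested genes. The list median was 0.03. Over the 30 receptors that reached 1 FPKM in either tissue it was -0.25, beside 0.14 for all tested genes at that minimum. The most abundant incisor-higher receptors were S1pr3, a sphingosine phosphate receptor of mural cells (195 against 42.9), the fractalkine receptor Cx3cr1 of macrophages and microglia (186 against 34.9), the lysophosphatidic acid receptor Lpar1 (46.2 against 14.8) and the thrombin receptor F2r (19.4 against 6.82). The most abundant molar-higher ones were the complement receptor C3ar1 (53.6 in incisor and 142 in molar), the nucleotide receptor P2ry6 (6.86 and 109), the chemokine receptor Ccr1 (18.8 and 57.3) and the formyl peptide receptor Fpr1 (4.14 and 65.7), which are known from myeloid cells. The endothelin receptors, on whose constrictor signal Rgs5 and Rgs4 act, were not called, with Ednra at 7.71 in incisor and 5.18 in molar (q = 0.327) and Ednrb at 25.5 and 37.3 (q = 0.273). Adora3 shares a joined row with another gene and was not counted.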

How the data were processed

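RNA of FDG-positive pulp cells was sequenced in 4 libraries, 2 from molar and 2 from incisor, and grouped by title. The deposited file is 1 gene table. In it, the authors give an FPKM value for each tissue, combined over its libraries, and a log2 fold change, a score from their test, a p-value and a q-value, per the file headers and the values. Trim Galore, HISAT2, edgeR and mm10 are named in the submitters' processing notes with no role, and the annotation, library scaling and tool behind the table have no statement in these sources. Columns were tied to tissues through the description labels. The smallest p in the authors' table, 5e-05, gives q = 0.000664 and is shared by 1414 rows, so these are not ranked further.

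The members and lists were chosen with earlier results of these data known. With 1 value per tissue no test was run here: the authors' q was read at 0.05. Differences were taken as log2((molar + 1) / (incisor + 1)), which understates those of low genes, or, for the settings of scale, as the authors' log2 fold. One row was kept per symbol, that with the highest mean. Transcripts, overlaps and 32-base words came from GENCODE M21, promoters from RefSeq (GRCm38.p6), and coordinates are 1-based. All 10 members were named, every other RGS gene, up to 4 called genes a direction from each other list at 1 FPKM or more by mean level, and the 3 most abundant of the marker lists that are named. List counting was tested on simulated data. Python 3.11.15, pandas 2.3.3 and matplotlib 3.10.9 were used.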

Additional observations from a re-analysis of the deposited data

How the results depend on the processing

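Each of the 6 called RGS genes kept its direction under all 6 alternatives: pseudocounts of 0.1, 1 and 5, centring on the median fold of all genes (0.21), equal FPKM totals (a shift of 0.60), and centring on genes of like transcript length, which was chosen after seeing the data. Log2 differences ran from -2.68 to -1.84 for Rgs5, -3.33 to -1.38 for Rgs4, 1.77 to 2.81 for Rgs10, 1.62 to 2.42 for Rgs3, 0.93 to 1.84 for Rgs19 and 1.87 to 3.36 for Rgs16. With equal totals the uncalled Rgs1 (-0.20), Rgs2 (-0.07) and Rgs12 (-0.34) changed sign. No gene with an absolute log2 fold under 1.10 was called, so Rgs18 at 0.99 lay below what was called in these libraries. At q under 0.01, 1 gene rather than 2 was called higher in incisor, since Rgs4 was lost, and 4 higher in molar; q under 0.10 and the authors' own mark gave 4 and 2. Of 84 list medians under other minimums or pseudocounts, 15 moved by more than 1.5 times. Calls could not be refitted under another scaling. No paired analysis was possible because the table holds 1 combined value per tissue, and for the same reason no library could be left out.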
